A study of Homo sapiens with 7 samples.

Results

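The insulin and IGF1 receptors and their adaptors were followed in HK-2, a cell line made by immortalising proximal tubule cells of a human kidney, after knockdown of the glucose transporter GLUT2, which SLC2A2 encodes. The set has 10 genes of the 33694 in the count table, taken by symbol: INSR, IGF1R, IGF2R, IRS1, IRS2, SHC1, PIK3R1, PIK3R3, GRB10 and PTPN1. All 10 passed the filter on low counts. The set and the pairing of INSR with IGF1R and of IRS1 with IRS2 were selected on the fold changes between siGLUT2 and scrambled libraries in these data, so every difference between the groups in these genes is a description and carries no test. The cells labelled GLUT2-KD received 50 nM siRNA against GLUT2 (3 libraries, replicates 2 to 4), and the cells labelled WT received 50 nM siRNA of scrambled sequence (4 libraries, replicates 1 to 4), all with a lipid transfection reagent. RNA was taken 96 h after transfection, and the labels call the replicates biological replicates. All cells are of 1 line, so the p-values given for other genes measure the spread between cultures of that line. Both groups grew in medium with 5% serum and 1% ITS, a supplement that supplies insulin, transferrin and selenium, so insulin was in the medium of every culture.

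Insulin and IGF1 bind a pair of closely related receptor tyrosine kinases, which phosphorylate the docking proteins IRS1 and IRS2 and the adaptor SHC1. Docking proteins recruit phosphoinositide 3-kinase (PI3K) through its regulatory subunits, which leads to AKT and to exclusion of FOXO factors from the nucleus, while SHC1 leads to RAS and ERK. In the proximal tubule, insulin acting through this pathway is known to restrain gluconeogenesis and to promote sodium reabsorption.

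Counts came from the 3' ends of transcripts, and the levels below are CPM, counts relative to the library total after scaling by the trimmed mean of M values (TMM), with mean ± SD over n = 3 siGLUT2 and n = 4 scrambled libraries. Fold changes are on the log2 scale, siGLUT2 over scrambled, ± SE, from edgeR's quasi-likelihood fit across 12404 genes, and the threshold for a call is a Benjamini-Hochberg adjusted p of 0.05. Total counts were 5881366 to 6914302 in siGLUT2 and 5654957 to 8455963 in scrambled libraries. SLC2A2 was counted 0, 0 and 0 times in siGLUT2 libraries 2, 3 and 4, and 13, 13, 7 and 17 times in scrambled libraries 1 to 4. A count of 0 allows a level of up to 0.432 to 0.512 CPM in a siGLUT2 library (3 counts per library, counting error only). Genes with a count numbered 13433 to 13891 in siGLUT2 and 14844 to 15036 in scrambled libraries, and mitochondrially encoded genes took 7.04% to 7.56% and 4.91% to 5.53% of counts. Of 15 proximal tubule markers 4 averaged 1 CPM or more (SLC5A2, SLC4A4, GGT1 and PAX8), their list summed to 258 to 278 CPM in siGLUT2 and 254 to 272 CPM in scrambled libraries, and LRP2, SLC5A1, SLC22A6 and SLC22A8 were at 0 in every library. Of 7 fibroblast and pericyte markers 4 reached 1 CPM (PDGFRB, LUM, COL1A1 and RGS5), and the list summed to 44.5 to 51.5 CPM in siGLUT2 and 16.7 to 22.9 CPM in scrambled libraries, with COL3A1 at 0. Of 8 markers of other nephron segments 2 reached 1 CPM (AQP3 and SCNN1A), with sums of 2.73 to 5.62 and 11.5 to 17.8 CPM and UMOD, SLC12A1, AQP2 and NPHS1 at 0. All 5 endothelial markers were at 0, and so were the leukocyte markers PTPRC, CD3E and LYZ. The part of these library and marker differences in the values below was not tested, and fewer cells of a type cannot be told apart from less RNA per cell.

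The starts of the genes for both receptors and both docking proteins are shown because the balance within these pairs carries the main values below. The sequences run from 250 bases before to 50 bases after the RefSeq start (build GRCh38.p14, gene strand, 5' to 3'). All 10 genes matched an entry. The gene positions given below come from GENCODE, which can place a start elsewhere. The INSR and IRS1 windows lie wholly upstream of the GENCODE positions of these genes. Capitals mark matches on either strand to a FOXO word (TGTTTAC), an insulin response word known from FOXO-bound promoters (TGTTTTG), a cyclic AMP response element (TGACGTCA), an E-box (CACGTG) or a GC box (GGGCGG), and neighbouring GC boxes may share bases.
INSR, chr19:7294365-7294664, minus strand: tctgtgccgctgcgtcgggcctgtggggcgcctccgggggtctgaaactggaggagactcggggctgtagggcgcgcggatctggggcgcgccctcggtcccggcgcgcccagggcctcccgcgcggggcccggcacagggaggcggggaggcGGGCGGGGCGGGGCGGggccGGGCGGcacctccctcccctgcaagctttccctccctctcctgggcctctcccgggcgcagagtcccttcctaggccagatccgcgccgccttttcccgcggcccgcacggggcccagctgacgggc
IGF1R, chr15:98648289-98648588, plus strand: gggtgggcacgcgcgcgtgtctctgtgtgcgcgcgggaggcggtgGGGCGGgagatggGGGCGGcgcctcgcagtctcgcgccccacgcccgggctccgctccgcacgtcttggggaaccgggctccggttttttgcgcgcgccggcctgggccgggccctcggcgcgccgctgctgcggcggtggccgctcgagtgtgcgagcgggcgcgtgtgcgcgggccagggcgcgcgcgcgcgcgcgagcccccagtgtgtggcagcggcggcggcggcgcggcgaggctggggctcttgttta
IRS1, chr2:226799771-226800070, minus strand: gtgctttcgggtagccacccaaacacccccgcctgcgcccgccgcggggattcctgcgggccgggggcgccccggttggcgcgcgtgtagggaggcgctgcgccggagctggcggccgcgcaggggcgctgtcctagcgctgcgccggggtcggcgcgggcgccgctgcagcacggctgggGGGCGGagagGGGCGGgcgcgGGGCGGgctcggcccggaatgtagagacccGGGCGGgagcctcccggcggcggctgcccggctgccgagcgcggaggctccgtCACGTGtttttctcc
IRS2, chr13:109786534-109786833, minus strand: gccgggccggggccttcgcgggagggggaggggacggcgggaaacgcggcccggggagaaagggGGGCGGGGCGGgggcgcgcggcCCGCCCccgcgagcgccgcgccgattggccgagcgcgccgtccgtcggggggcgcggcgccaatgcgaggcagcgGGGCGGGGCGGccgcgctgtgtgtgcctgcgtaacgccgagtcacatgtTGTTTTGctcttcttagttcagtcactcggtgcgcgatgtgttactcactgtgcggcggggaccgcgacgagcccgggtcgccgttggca
The insulin response word stood in 1 of the 10 windows, that of IRS2, and in 4.92% of all 35116 windows of the table. The FOXO word (3.42% of all windows) and the cyclic AMP response element (1.85%) stood in 0 of the 10. GC boxes stood in 9 of the 10, all but SHC1, and in 45.0% of all windows. An E-box stood in IGF2R and IRS1, and in 7.26% of all windows. The windows of the 10 genes were 55.0% to 81.0% G or C, and 9 of them lay above the median of all windows, 58.7%.

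INSR and IGF2R were lower in every siGLUT2 library, while IGF1R overlapped between the groups. INSR, the insulin receptor (ENSG00000171105, chr19:7112255-7294034 on GRCh38, minus strand), stood at 4.60, 9.51 and 7.04 CPM in siGLUT2 libraries 2, 3 and 4, and at 22.8, 23.3, 24.8 and 21.7 CPM in scrambled libraries 1 to 4. Every siGLUT2 library lay below every scrambled library, with 27 to 66 counts of the gene against 123 to 196. The means were 7.05 ± 2.45 CPM in siGLUT2 and 23.1 ± 1.28 CPM in scrambled cells (-1.71 ± 0.27), so the siGLUT2 mean was 0.305 times the scrambled mean.

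IGF1R, the receptor for IGF1 (ENSG00000140443, chr15:98648539-98964530, plus strand), stood at 51.0, 55.6 and 89.1 CPM in siGLUT2 libraries and at 51.4, 55.9, 48.3 and 59.6 CPM in scrambled libraries. siGLUT2 libraries 2 and 3 lay within the scrambled range, and library 4 lay above it. The fold change was 0.28 ± 0.17, and without siGLUT2 replicate 4 it was -0.01, so that 1 library sets the sign.

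IGF2R, the receptor that clears IGF2 and carries mannose 6-phosphate tagged hydrolases to lysosomes (ENSG00000197081, chr6:159969099-160113507, plus strand), has no kinase domain. It stood at 84.9, 84.7 and 117 CPM in siGLUT2 libraries and at 156, 124, 126 and 140 CPM in scrambled libraries. The groups did not overlap, and the siGLUT2 library nearest to the scrambled range was replicate 4, the same library that was highest for IGF1R. The fold change was -0.51 ± 0.13.

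**Figure D1:**
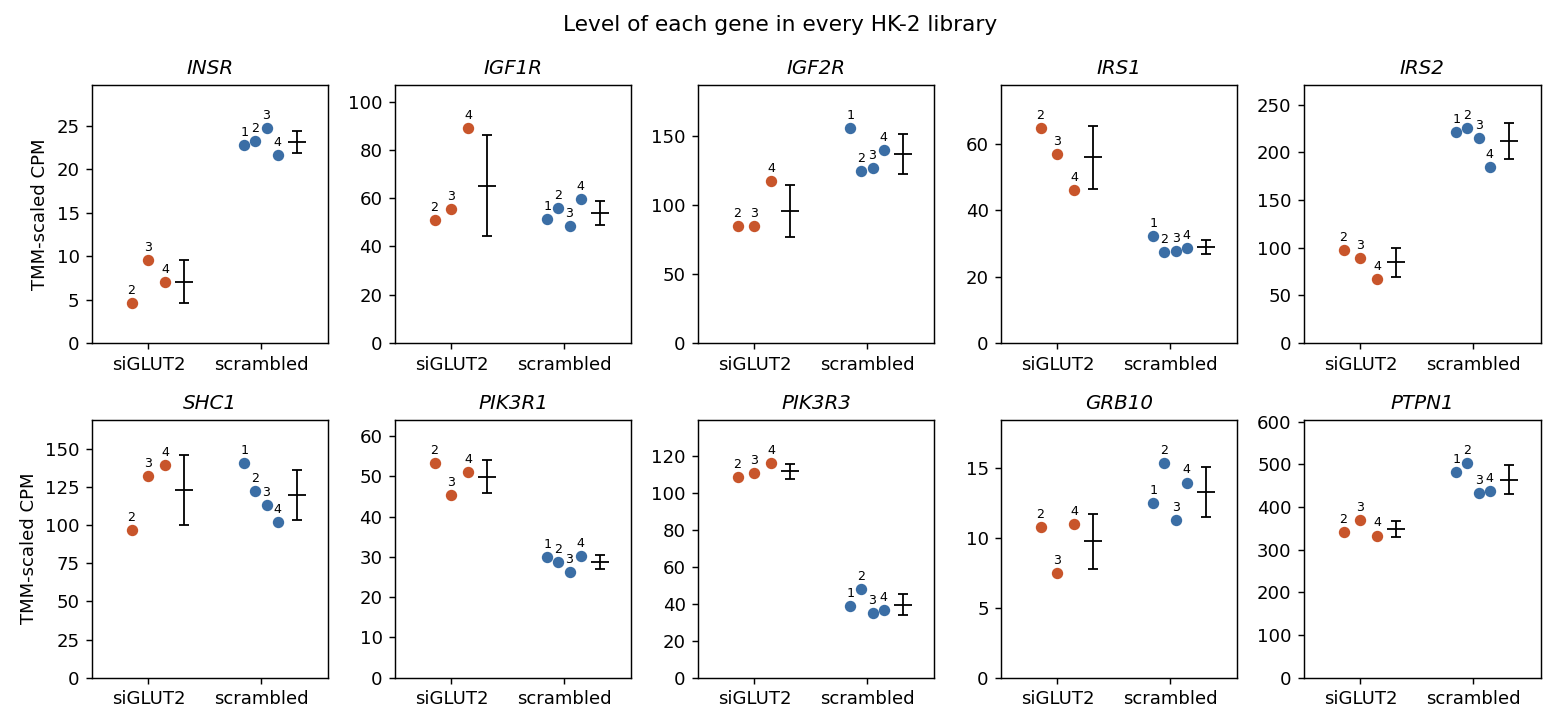
TMM-scaled CPM (y axis, linear from 0) of the 10 genes in each library, siGLUT2 left and scrambled right, with the replicate number above each point and the mean ± SD as a bar to its right. INSR, IGF2R, IRS2, GRB10 and PTPN1 were lower in every siGLUT2 library, IRS1, PIK3R1 and PIK3R3 were higher in every siGLUT2 library, and the groups overlap for IGF1R and SHC1.

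IRS1 and IRS2, the main docking proteins of both receptors, differed in opposite directions. IRS1 (ENSG00000169047, chr2:226731317-226799759, minus strand) stood at 64.8, 56.9 and 46.0 CPM in siGLUT2 libraries and at 32.1, 27.5, 27.6 and 28.7 CPM in scrambled libraries. All siGLUT2 values were above all scrambled values, and the spread was wider in the siGLUT2 group (SD 9.46 CPM) than in the scrambled group (SD 2.16 CPM). The fold change was 0.95 ± 0.16.

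IRS2 (ENSG00000185950, chr13:109752698-109786568, minus strand) stood at 97.0, 89.3 and 67.2 CPM in siGLUT2 libraries and at 222, 226, 215 and 184 CPM in scrambled libraries. The highest siGLUT2 library was well under the lowest scrambled one. The means were 84.5 ± 15.5 CPM in siGLUT2 and 212 ± 18.8 CPM in scrambled cells (-1.33 ± 0.12), a siGLUT2 mean of 0.400 times the scrambled mean. INSR and IRS2 are both textbook genes of the FOXO programme, in which low insulin signalling raises their transcription.

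SHC1, the adaptor that links the receptors to GRB2 and RAS (ENSG00000160691, chr1:154962298-154974395, minus strand), stood at 96.5, 132 and 140 CPM in siGLUT2 libraries and at 141, 122, 113 and 102 CPM in scrambled libraries (0.04 ± 0.13). The groups overlapped across most of their range. Its exons overlap those of PYGO2 on the same strand and of AL451085.2 on the other strand, which had up to 486 and 22 counts in a library. Reads of the overlap with PYGO2 cannot be told apart by strand. Those of the overlap with AL451085.2 cannot be told apart here because the strand setting is not given in the sources used. Exons of IRS2, PIK3R3 and PTPN1 also overlap an annotated gene, and each of those neighbours was at 0 in every library.

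The balance between paired genes was read as a share of their joint counts within each library, which needs no scaling between libraries. With 3' counting there is no length term, and the shares are compared between libraries, not as a statement of which gene of a pair makes more protein. INSR made up 8.28%, 14.6% and 7.32% of INSR and IGF1R counts in siGLUT2 libraries 2, 3 and 4 (Wilson 95% intervals 5.75 to 11.8, 11.6 to 18.2 and 5.51 to 9.65). In scrambled libraries 1 to 4 it made up 30.8%, 29.4%, 33.9% and 26.7% (27.0 to 34.8, 26.0 to 33.0, 30.2 to 37.9 and 22.8 to 30.9). The intervals of the siGLUT2 libraries did not reach those of the scrambled libraries. The pair was chosen on this contrast, so that gap is a description and no test. The intervals cover counting error only, not the spread between cultures. Reads of 1 molecule may also be counted more than once where no molecular identifiers are used.

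The log2 ratio of INSR to IGF1R averaged -3.23 ± 0.60 in siGLUT2 and -1.21 ± 0.21 in scrambled libraries, a difference of -2.01 ± 0.36 (SE), or a scrambled ratio 4.04 times that of siGLUT2. Leaving out single libraries moved the difference between -2.35 and -1.79. The summed level of both receptors was 72.3 ± 21.2 CPM in siGLUT2 and 77.0 ± 3.91 CPM in scrambled cells.

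IRS1 made up 40.0%, 38.9% and 40.6% of IRS1 and IRS2 counts in siGLUT2 libraries 2, 3 and 4 (Wilson 95% intervals 37.0 to 43.2, 36.0 to 42.0 and 37.1 to 44.2). In scrambled libraries 1 to 4 it made up 12.6%, 10.9%, 11.4% and 13.5% (11.2 to 14.3, 9.60 to 12.3, 10.0 to 12.9 and 11.7 to 15.5). The 3 siGLUT2 shares lay within 1.69 percentage points of each other, although the CPM of both genes spread between the same libraries. The log2 ratio of IRS1 to IRS2 averaged -0.59 ± 0.05 in siGLUT2 and -2.87 ± 0.16 in scrambled libraries, a difference of 2.27 ± 0.09 (SE), a ratio 4.83 times that of scrambled cells. The summed level of both docking proteins was 140.4 ± 24.8 CPM in siGLUT2 and 241 ± 19.2 CPM in scrambled cells.

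**Figure D2:**
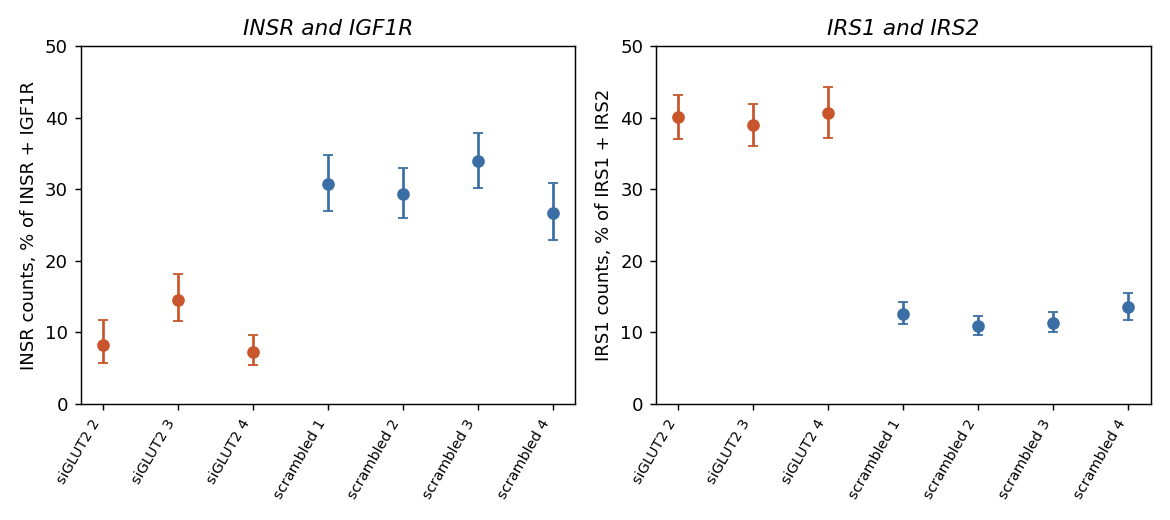
Share of INSR in the joint counts of INSR and IGF1R (left) and of IRS1 in the joint counts of IRS1 and IRS2 (right), in percent, for each siGLUT2 library (orange) and each scrambled library (blue), with Wilson 95% intervals as bars. The INSR share was 7.32% to 14.6% in siGLUT2 and 26.7% to 33.9% in scrambled libraries, and the IRS1 share was 38.9% to 40.6% in siGLUT2 and 10.9% to 13.5% in scrambled libraries.

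Both regulatory subunits of PI3K in the set were higher after siGLUT2. These subunits bind phosphorylated docking proteins and hold the catalytic subunit there. PIK3R3 (ENSG00000117461, chr1:46040140-46133036, minus strand) stood at 108, 111 and 116 CPM in siGLUT2 libraries and at 39.0, 47.9, 34.8 and 36.9 CPM in scrambled libraries. The groups were far apart, and the siGLUT2 libraries lay close together (SD 4.14 CPM around 112 CPM). The fold change was 1.50 ± 0.13, a siGLUT2 mean of 2.82 times the scrambled mean.

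PIK3R1, which encodes the widely expressed regulatory subunit (ENSG00000145675, chr5:68215720-68301821, plus strand), stood at 53.4, 45.4 and 51.0 CPM in siGLUT2 libraries and at 29.9, 28.7, 26.2 and 30.2 CPM in scrambled libraries. Every siGLUT2 library lay above every scrambled library (0.80 ± 0.16).

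PTPN1, the phosphatase PTP1B that removes phosphate from the activated receptors (ENSG00000196396, chr20:50510321-50585241, plus strand), stood at 342, 370.5 and 333 CPM in siGLUT2 libraries and at 483, 504, 434 and 437 CPM in scrambled libraries. The groups did not overlap, and the difference was modest (-0.41 ± 0.09). GRB10, an adaptor that binds the receptors and restrains their signal (ENSG00000106070, chr7:50590063-50793462, minus strand), stood at 10.7, 7.49 and 10.9 CPM in siGLUT2 libraries and at 12.5, 15.4, 11.3 and 13.9 CPM in scrambled libraries. The groups were separate by a narrow margin, with 52 to 70 and 79 to 128 counts of the gene in a library (-0.45 ± 0.28), and GRB10 did not pass edgeR's threshold.

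Of the 10 genes, 8 had no overlap between the groups, 3 of them higher and 5 lower in siGLUT2, where 35.1% of all tested genes had no overlap (17.2% higher and 17.9% lower). In edgeR's test 7 of the 10 passed the threshold, where 28.3% of all tested genes did. The 3 higher ones were IRS1, PIK3R1 and PIK3R3 (13.9% of all tested genes passed as higher), and the 4 lower ones were INSR, IGF2R, IRS2 and PTPN1 (14.4% passed as lower). IGF1R, SHC1 and GRB10 did not pass. Since the genes were proposed from this contrast, nothing is read from these counts. The median fold change was -0.19 for the 10 genes and -0.0029 for all tested genes, and the median size regardless of sign was 0.66 and 0.38. Between replicates, the median coefficient of variation of the 10 genes was 18.5% in siGLUT2 and 9.06% in scrambled libraries.

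**Figure D3:**
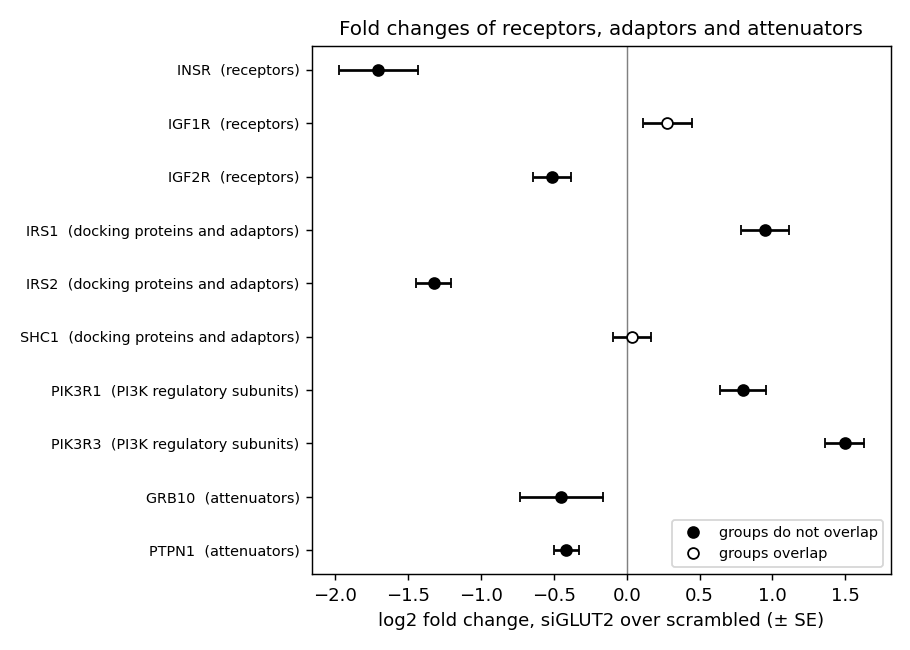
Log2 fold change of siGLUT2 over scrambled (x axis) with its SE as a bar for the 10 genes, by role from receptors at the top to attenuators at the bottom. Filled points mark genes whose groups do not overlap in CPM, and open points mark the overlapping genes IGF1R and SHC1. Receptors and docking proteins hold values on both sides of 0, from -1.71 for INSR to 0.95 for IRS1, while both PI3K subunits lie above 0 and both attenuators below.

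The 3' UTRs of 4 of the 10 genes hold a 7-base word, GACCTTA or ACCTTAA, that an earlier scan of these same fold changes had picked out. The sites are shown in capitals within 29 bases of the longest annotated 3' UTR (GENCODE release 29, GRCh38, gene strand, 5' to 3'), because they fall in exactly the genes of the pairs compared above.
INSR, chr19:7115343-7115371, minus strand: accgtgaaaaaGACCTTAcacaccaccaa
IGF1R, chr15:98957676-98957704, plus strand: ggcctttaagaACCTTAAtgacaacactt
IRS1, chr2:226735979-226736007, minus strand: cttcatcttcaACCTTAAggacttagctg
IRS2, chr13:109754130-109754158, minus strand: ttgcctgacttACCTTAAatttaaaatat
INSR and IRS2 were lower in siGLUT2 cells, IRS1 was higher and IGF1R overlapped between the groups, so genes with a site stood in both directions. Either word stood in 15.6% of 10079 genes that averaged 5 CPM or more, and those 1574 genes had a median fold change of -0.10, against 0.03 for the 8505 genes with neither. Genes with a word also had longer 3' UTRs (median 3312 bases, against 1259), and the 3' UTRs of the 10 genes were 1505 to 7088 bases long, with a median of 3913 against 1490 for all genes compared. The part of these sites in the values above was not tested.

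Other genes of the pathway were taken from 8 lists by textbook role that leave out the 10 genes. Earlier results of these data were known when the lists were made, so the share that passed is a description. Of 113 genes 99 were tested, and 21 rose and 13 fell (34.3% passed, against 28.3% of all tested genes). The count of each list below stands beside 13.9% of all tested genes that rose and 14.4% that fell. The median fold change over the 99 was 0.14. Adjusted p-values here are those of edgeR's quasi-likelihood test over all genes tested.

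Transcripts of the ligands were at or near 0. INS and IGF2 were counted 0 times in every library, as was the orphan receptor INSRR, and IGF1 averaged 0 CPM in siGLUT2 and 0.240 ± 0.333 CPM in scrambled cells. In the list of ligands, orphan receptor and processing, 2 of 8 genes were tested and 1 rose. FURIN, the protease that cleaves the precursors of both receptor kinases, rose to 72.0 ± 6.04 CPM in siGLUT2, against 41.6 ± 5.36 CPM in scrambled cells (0.80 ± 0.15, adjusted p = 0.000246). IDE, which degrades insulin, stood at 29.9 ± 3.78 CPM in siGLUT2 and 22.8 ± 2.76 CPM in scrambled cells (0.39 ± 0.19, adjusted p = 0.139).

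Among the other docking proteins and adaptors 2 of 16 tested genes rose and 0 fell by edgeR, while 1 lay lower at an unadjusted p below 0.05. That gene, GAB1, a docking protein of several receptor kinases, averaged 2.16 ± 1.62 CPM in siGLUT2 and 5.93 ± 2.44 CPM in scrambled cells (adjusted p = 0.066). DESeq2 called 1 gene lower and limma-voom 0. SHC3, a relative of SHC1 known mainly from neurons, averaged 2.51 ± 1.16 CPM in siGLUT2 and 0.220 ± 0.364 CPM in scrambled cells (adjusted p = 0.0286). It was counted 22, 10 and 15 times in siGLUT2 libraries 2, 3 and 4, and 0, 1, 6 and 0 times in scrambled libraries 1 to 4. SHC3, 1 of the 2 genes that rose, passed the low-count filter only through the group where it is high, so its call is a description. That edgeR call was lost without scrambled replicate 4 (adjusted p = 0.0779) or siGLUT2 replicate 2 (0.0952). It was also lost with no low-count filter (adjusted p = 0.0584) and with the replicate block (0.164). Without scrambled replicate 1, 2 or 3, SHC3 did not pass the low-count filter and was not tested. NCK2, an adaptor to the actin cytoskeleton, rose (0.91 ± 0.25, adjusted p = 0.00923), and without siGLUT2 replicate 3 its adjusted p was 0.121. With the replicate block the adjusted p of NCK2 was 0.0560. GRB2, the adaptor between SHC1 and SOS proteins, stood at 121 ± 12.3 CPM in siGLUT2 and 140 ± 8.97 CPM in scrambled cells and did not pass (adjusted p = 0.156).

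Of 7 other PI3K genes tested, 3 rose and 0 fell by edgeR, where 13.9% of all tested genes rose and 14.4% fell, and 2 of the 3 calls were lost on leaving out single libraries. Likewise 0 fell by DESeq2 and limma-voom, and 0 lay lower at an unadjusted p below 0.05. PIK3CD, a catalytic subunit best known from leukocytes, rose to 71.9 ± 7.10 CPM in siGLUT2, against 28.9 ± 4.97 CPM in scrambled cells (1.31 ± 0.16, adjusted p = 2.62e-06). PIK3CB, a widely expressed catalytic subunit, rose (0.58 ± 0.19, adjusted p = 0.0296), and its call was lost on leaving out any of 6 libraries, with adjusted p between 0.0577 and 0.106. PIK3R2, the third regulatory subunit of the PIK3R1 family, rose (0.71 ± 0.22, adjusted p = 0.0203), and lost the call without scrambled replicate 1 (adjusted p = 0.0676), scrambled replicate 3 (0.0545) or siGLUT2 replicate 3 (0.217). PIK3CA, the other widely expressed catalytic subunit, stood at 24.7 ± 4.73 CPM in siGLUT2 and 28.1 ± 5.22 CPM in scrambled cells (adjusted p = 0.552).

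Of 26 other attenuators 4 rose and 4 fell by edgeR and by DESeq2, and 5 rose and 2 fell by limma-voom. SH2B3, an inhibitory adaptor also called LNK, rose (1.52 ± 0.17, adjusted p = 4.48e-07). NEDD4, a ubiquitin ligase that targets growth factor receptors, fell to 41.9 ± 9.38 CPM in siGLUT2, against 98.2 ± 7.16 CPM in scrambled cells (-1.23 ± 0.15, adjusted p = 1.99e-06). GRB7, a close relative of GRB10, fell (-1.21 ± 0.18, adjusted p = 2.39e-05), while GRB14, the other relative, stood at 22.8 ± 1.02 CPM in siGLUT2 and 21.6 ± 2.91 CPM in scrambled cells (adjusted p = 0.824).

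In the RAS to ERK branch 1 of 14 genes rose and 4 fell by edgeR and by DESeq2, and 2 rose and 4 fell by limma-voom. MAP2K2, the kinase MEK2, fell (-0.93 ± 0.11, adjusted p = 2.37e-06), as did MAPK3, the kinase ERK1 (-1.32 ± 0.24, adjusted p = 0.000193), and SOS2, a RAS exchange factor (-1.25 ± 0.24, adjusted p = 0.000318). In the list of the AKT branch and FOXO factors 1 of 12 rose and 2 fell. TSC2, an inhibitor of mTOR complex 1 that AKT phosphorylates, fell (-0.94 ± 0.23, adjusted p = 0.0032). GSK3B, a kinase that AKT inhibits, rose (0.35 ± 0.11, adjusted p = 0.0165, and 0.0633 without scrambled replicate 1). BAD, an apoptosis promoter that AKT inhibits, fell (-0.82 ± 0.25, adjusted p = 0.0182, and 0.1001 and 0.0712 without scrambled replicate 1 or siGLUT2 replicate 4). With the replicate block the edgeR calls of GSK3B (adjusted p = 0.102) and BAD (0.0821) were lost.

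Of 12 FOXO target genes tested, 5 rose and 1 fell, where 13.9% of all tested genes rose and 14.4% fell. A further 3 of the list did not pass the low-count filter. INSR and IRS2, also genes of the FOXO programme, are left out of this list and were lower in siGLUT2. GADD45A, a growth arrest gene, rose to 116 ± 14.99 CPM in siGLUT2, against 63.8 ± 9.13 CPM in scrambled cells (0.87 ± 0.13, adjusted p = 3.42e-05). FBXO32, the ubiquitin ligase atrogin, rose (0.58 ± 0.12, adjusted p = 0.000814), and BNIP3, a mitophagy receptor, fell (-0.40 ± 0.09, adjusted p = 0.00152). These genes have other regulators besides FOXO factors, among them p53 for GADD45A and hypoxia-inducible factor for BNIP3.

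Around IGF2R, 4 of 10 genes of mannose 6-phosphate sorting and of the retromer rose and 2 fell. GNPTAB, which encodes the phosphotransferase that makes the mannose 6-phosphate tag, rose to 130.4 ± 24.6 CPM in siGLUT2, against 56.2 ± 1.97 CPM in scrambled cells (1.21 ± 0.13, adjusted p = 2.73e-07). M6PR, the smaller receptor for the same tag, rose (0.78 ± 0.11, adjusted p = 1.03e-05). VPS35, the retromer subunit that returns IGF2R from endosomes to the Golgi, fell to 114 ± 7.88 CPM in siGLUT2, against 351 ± 25.5 CPM in scrambled cells (-1.62 ± 0.10, adjusted p = 6.0e-11).

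**Figure D4:**
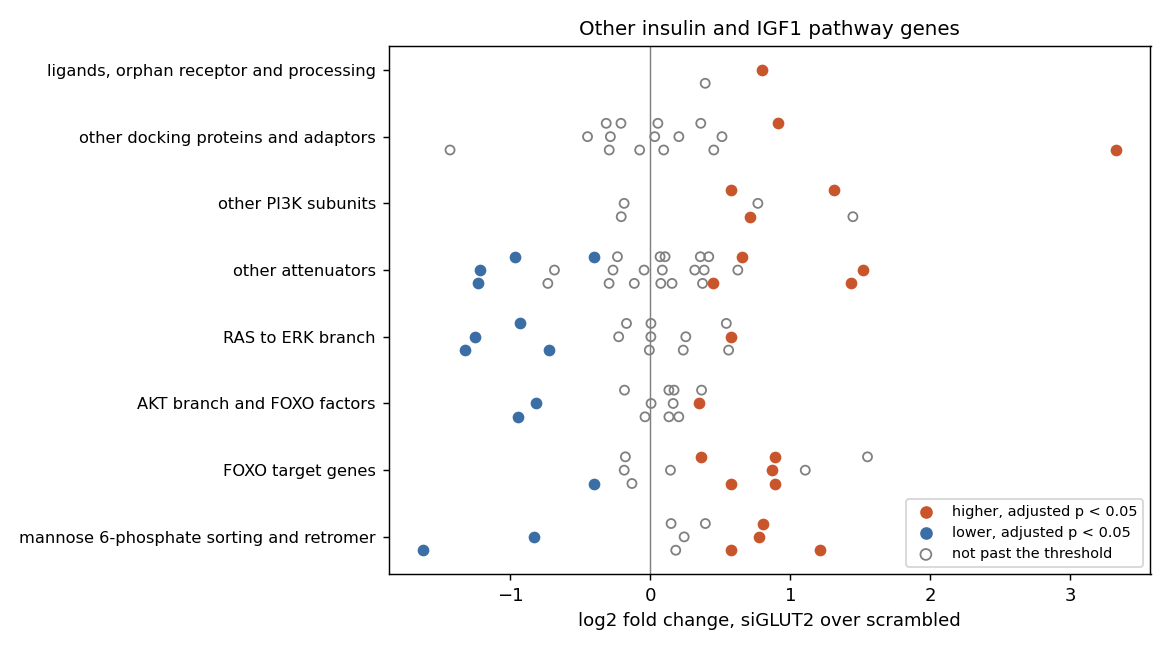
Log2 fold change of siGLUT2 over scrambled (x axis) for the 99 tested genes of the 8 other pathway lists, 1 row per list, with points spread vertically only to avoid overprinting. Orange points rose and blue points fell at an adjusted p below 0.05, and open points did not pass. The PI3K row holds 3 orange and 0 blue points, the RAS to ERK row holds 1 orange and 4 blue points.

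Over the 7 libraries, genes whose log2 CPM ran most like that of the paired genes were found among 6943 genes that averaged 20 CPM or more. For INSR they were KLHDC3 (Pearson r = 0.996), HNRNPD (0.995) and CDK4 (0.993), and for IRS2 they were RPL19 (0.996), SPDL1 (0.995) and KCTD20 (0.994). For IRS1 they were NET1 (0.994), SP100 (0.993) and NSF (0.992). IGF1R ran most like ZC2HC1A (0.985), PITPNA (0.957) and PCYT2 (0.955). It stood at 89.1 CPM in siGLUT2 library 4 and at 48.3 to 59.6 CPM in the others, so that library weighs heavily in its values. The genes named are the highest of 6943 over 7 libraries, and whether their r exceeds chance was not tested. All points share the 2 groups, so for genes that differ between the groups these values mostly restate that difference.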

How the data were processed

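Per the labels' protocols, a sequencing service made 3' digital mRNA-seq libraries from 125 ng of total RNA and read them from 1 end over 100 cycles. The authors deposited raw counts per Ensembl gene for 7 libraries. Per the submitters' processing notes, STAR, HTSeq, edgeR and hg38 were used, with no version or role stated. Not given in the sources used here are the annotation, the strand setting and whether molecular identifiers were used. No row was a total or unassigned class. Groups came from the sample titles.

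edgeR 4.0.16 in R 4.3.3 was run on all 7 libraries after filterByExpr (a count of 10, a total of 15) and TMM scaling. Dispersions (estimateDisp) and the quasi-likelihood fit (glmQLFit) were robust, the test was glmQLFTest with the group as the only term, and p-values were adjusted by Benjamini-Hochberg, with a threshold of 0.05. The SE of a fold change is its size divided by the square root of the F statistic. Log2 CPM for likeness used a prior count of 2. Alternatives were DESeq2 1.42.0, limma-voom (limma 3.58.1), other scalings and filters, a replicate block, and each library left out. Replicate pairs within a group differed by more than sampling noise, so each library counts once. The median chi-square was 4.53 to 7.09 times its expectation in scrambled pairs and 9.82 to 13.6 times in siGLUT2 pairs. The fit gives both groups the same dispersion for a gene. The edgeR fit was tested on simulated counts.

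The genes, lists and pairs were chosen with earlier results of these data known. The genes named outside the 10 are, per list, up to 3 with the smallest adjusted p below 0.05, or up to 2 with the highest CPM where fewer than 2 pass, and the 3 most like each of the paired genes. GRB2, GAB1, PIK3CA, GRB14, INS, IGF1, IGF2 and INSRR were named outside this rule, after their values were seen. Positions come from GENCODE release 29 on GRCh38, and promoter sequences from RefSeq. A leukocyte marker of the fixed list is not reported here.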

Additional observations from a re-analysis of the deposited data

Results flagged for a closer look

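Among the 34 sets of 4 scrambled values examined for a library far from the others (the 10 genes, both ratios and the named pathway genes), 4 had one, where chance gives about 1 in 20. PIK3CD stood at 21.5 CPM in scrambled replicate 3 and at 31.1 to 31.9 CPM in the other scrambled libraries. SHC3 stood at 0.759 CPM in scrambled replicate 3 and at 0 to 0.120 CPM in the others. SH2B3 stood at 24.3 CPM in scrambled replicate 4 and at 19.7 to 20.3 CPM in the others, and GNPTAB at 53.3 CPM in scrambled replicate 4 and at 56.9 to 57.6 CPM in the others. None of the 10 receptor and adaptor genes and neither ratio had such a library. Groups of 3 were not examined in this way.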

How the results depend on the processing

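Under 14 alternatives, the number of genes changed by siGLUT2 was 2649 to 3778 against 3509, the number of changed pathway genes outside the 10 was 23 to 37 against 34, and 7 or 8 of the 10 genes passed against 7. The eighth was IGF1R without siGLUT2 replicate 2. The 10 genes were selected on this contrast, so their calls and directions here are a description and carry no test. Leaving out single libraries gave 2796 to 3778 changed genes and 25 to 34 changed pathway genes. The 7 genes that passed kept their direction in all alternatives, and IGF1R moved to -0.01 without siGLUT2 replicate 4. The INSR to IGF1R difference was -1.98 from summed counts and -1.999 with a pseudocount of 0.5, and the IRS1 to IRS2 difference was 2.29 and 2.27, with 2.22 to 2.34 when single libraries were left out. Of 22 named pathway genes 16 kept their side of the threshold throughout. The exceptions were SHC3, NCK2, PIK3CB, PIK3R2, GSK3B and BAD. Same-numbered libraries of the groups did not deviate together (r of 0.0095, 0.0152 and -0.0032 for replicates 2, 3 and 4), so the numbers were not taken as pairs. With the replicate block 2649 genes and 23 pathway genes passed, and the ratio differences were -1.998 and 2.30. PIK3CB (adjusted p = 0.0969) and PIK3R2 (adjusted p = 0.117) did not pass in that edgeR fit. Neither did SHC3 (adjusted p = 0.164), NCK2 (0.0560), GSK3B (0.102) and BAD (0.0821). INSR (27 to 66 counts) and GRB10 (52 to 70 counts) were the least deeply counted of the 10 genes in siGLUT2 libraries.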
